A study of Homo sapiens with 4 samples.

Results

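The genes described here are 10 negative feedback and output genes of the ERK pathway: DUSP4, DUSP5, DUSP6, SPRY1, SPRY2, SPRY4, SPRED1, SPRED2, EGR1 and PHLDA1. They were chosen by name, and all 10 were found among the 46427 genes of the tables, by their NCBI Gene numbers. RNA had been sequenced from Huh7 and HepG2, a pair of human liver cancer cell lines, each transfected with a control siRNA (NC-siRNA) or an siRNA against COP1 (COP1-siRNA). Both siRNAs were used at 20 nM, the cells were in contact with the transfection mix for 5 h, and RNA was taken at 48 h. Huh7 and HepG2 cells with NC-siRNA thus carried the transfection but not the knockdown. Each combination of line and siRNA was represented by 1 library, 4 in all, so no replicate error could be given for a single level or for a change within a line. The only test below took the 2 lines as replicates of the knockdown.

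The ERK pathway carries growth factor signals from receptor tyrosine kinases through RAS, RAF and MEK to the ERK kinases. Active ERK induces transcription of its own inhibitors, so that the mRNA of these inhibitors is widely used as a readout of pathway output. The dual specificity phosphatases (DUSP) remove the activating phosphates from ERK, whereas the Sprouty (SPRY) and SPRED proteins act upstream, at the activation of RAS and RAF. COP1 is an E3 ubiquitin ligase whose known substrates include the transcription factors JUN, ETV1, ETV4 and ETV5.

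COP1 itself was at 19.7 TPM (a level scaled for gene length and library size) in Huh7 NC-siRNA and 6.18 TPM in Huh7 COP1-siRNA. The HepG2 libraries held 26.9 TPM under NC-siRNA and 16.1 under COP1-siRNA, a smaller decrease. On the log2(TPM + 1) scale the changes were -1.53 in Huh7 and -0.71 in HepG2. With 1 library per line and siRNA, this difference between the lines was not tested. The 9 hepatocyte markers were all at or above 1 TPM in all 4 libraries, with a summed level of 18181 to 20309 TPM in Huh7 and 2672 to 3083 TPM in HepG2. The leukocyte markers PTPRC and CD3E were listed at 0 in all 4 libraries, but CD68 and CD14 were not. With NC-siRNA and COP1-siRNA, CD68 was at 58.2 and 56.4 TPM in Huh7 and 15.6 and 17.3 TPM in HepG2. CD14 was at 4.47 and 2.24 TPM in Huh7 and 0.323 and 0.563 TPM in HepG2. The summed level of the 4 leukocyte markers was 58.6 to 62.7 TPM in Huh7 and 15.9 to 17.8 TPM in HepG2, and that of the 4 biliary markers 241 to 245 TPM and 95.1 to 125 TPM. The 4 endothelial markers summed to 5.08 to 7.36 TPM in Huh7 and 0.275 to 0.416 TPM in HepG2, and the 5 fibroblast or stellate markers to 0.783 to 0.930 TPM and 13.7 to 18.2 TPM. These markers differed between the lines, as the genes below did, and their part in those differences was not tested.

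Most of the ERK feedback genes were expressed at different levels in the lines. The 3 phosphatases were all higher in Huh7 than in HepG2. Their summed level was 119 TPM in Huh7 NC-siRNA against 8.09 TPM in HepG2 NC-siRNA, a 14.7-fold difference. EGR1 showed the opposite order, being 20.2-fold higher in HepG2 with either siRNA. Of the 10 genes, 7 were past 2-fold between the lines in the same direction with both siRNAs, beside 34.6% of the 15486 genes tested between the lines. Of these, 5 were higher in Huh7 (beside 12.2% of all tested genes) and 2 were higher in HepG2 (beside 22.4%). A gene was tested between the lines if it reached 1 TPM in at least 1 library, and differences were computed as log2((TPM in Huh7 + 1)/(TPM in HepG2 + 1)). The median difference of the 10 genes was 1.77 with NC-siRNA and 1.25 with COP1-siRNA, beside -0.36 and -0.35 over all tested genes. The median over all genes lay below 0, and median-of-ratios scaling moved it to -0.04 and -0.05.

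DUSP6, an ERK-specific phosphatase of the cytoplasm (chromosome 12, 89347235 to 89352501, minus strand, GRCh38), was at 54.5 TPM in Huh7 NC-siRNA, 32.0 in Huh7 COP1-siRNA, 2.17 in HepG2 NC-siRNA and 2.16 in HepG2 COP1-siRNA. Both Huh7 libraries lay above both HepG2 libraries, 25.2-fold with NC-siRNA and 14.8-fold with COP1-siRNA. The log2 difference between the lines was 4.13 and 3.38, the largest of the 10 genes in favour of Huh7 with either siRNA.

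DUSP4, an inducible phosphatase of the nucleus (chromosome 8, 29333062 to 29350684, minus strand), was at 20.0 TPM in Huh7 NC-siRNA, 16.3 in Huh7 COP1-siRNA, 1.20 in HepG2 NC-siRNA and 1.01 in HepG2 COP1-siRNA. The lines did not overlap, and Huh7 was 16.7-fold and 16.1-fold higher with NC-siRNA and COP1-siRNA. With both HepG2 values near 1 TPM, DUSP4 was the lowest of the 10 genes in both HepG2 libraries. DUSP4 and DUSP6 were past 8-fold in favour of Huh7 with both siRNAs, on the log2(TPM + 1) scale, as were 1.88% of all tested genes.

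DUSP5, a nuclear phosphatase specific for ERK (chromosome 10, 110497907 to 110511533, plus strand), was at 44.5 TPM in Huh7 NC-siRNA, 41.1 in Huh7 COP1-siRNA, 4.72 in HepG2 NC-siRNA and 7.17 in HepG2 COP1-siRNA. Huh7 was higher in both pairs, 9.41-fold with NC-siRNA and 5.74-fold with COP1-siRNA. The distance between the lines was thus smaller in the COP1-siRNA pair, as it was for DUSP6.

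The 3 Sprouty genes did not share 1 pattern across the lines. SPRY4 (chromosome 5, 142310430 to 142325021, minus strand) was at 17.5 TPM in Huh7 NC-siRNA, 10.6 in Huh7 COP1-siRNA, 1.26 in HepG2 NC-siRNA and 1.42 in HepG2 COP1-siRNA. Its Huh7 libraries were both above its HepG2 libraries, by 13.8-fold with NC-siRNA and 7.47-fold with COP1-siRNA. The noncoding gene SPRY4-IT1 lies on the same strand within SPRY4 and reached at most 0.225 TPM. SPRY1 (chromosome 4, 123396795 to 123403760, plus strand) had the reverse order, at 3.63 TPM in Huh7 NC-siRNA, 2.59 in Huh7 COP1-siRNA, 10.2 in HepG2 NC-siRNA and 8.40 in HepG2 COP1-siRNA. HepG2 was 2.82-fold higher with NC-siRNA and 3.24-fold higher with COP1-siRNA. On the log2 scale the difference of SPRY1 was -1.28 and -1.39, but with NC-siRNA it became -0.99 under median-of-ratios scaling and -0.96 with coverage, both short of 2-fold. SPRY2 (chromosome 13, 80335976 to 80341126, minus strand) was at 11.4 TPM in Huh7 NC-siRNA, 10.9 in Huh7 COP1-siRNA, 9.96 in HepG2 NC-siRNA and 8.48 in HepG2 COP1-siRNA. Its 4 values lay close together, with log2 differences of 0.18 and 0.32 between the lines. The summed level of the 3 Sprouty genes was only 1.51-fold higher in Huh7 with NC-siRNA, at 32.5 against 21.5 TPM.

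SPRED1, which brings the RAS inhibitor neurofibromin to the membrane (chromosome 15, 38252087 to 38357249, plus strand), was at 3.16 TPM in Huh7 NC-siRNA, 3.27 in Huh7 COP1-siRNA, 3.48 in HepG2 NC-siRNA and 3.69 in HepG2 COP1-siRNA. It varied least of the 10 genes between the lines, with a log2 difference of -0.11 and -0.13 that turned to 0.16 and 0.12 under median-of-ratios scaling. A gene that overlaps SPRED1 on the other strand reached at most 0.175 TPM. The related SPRED2 (chromosome 2, 65307425 to 65432599, minus strand) was at 27.4 TPM in Huh7 NC-siRNA, 23.6 in Huh7 COP1-siRNA, 12.9 in HepG2 NC-siRNA and 15.5 in HepG2 COP1-siRNA. The SPRED2 libraries of Huh7 were both above those of HepG2, by 2.13-fold with NC-siRNA and 1.52-fold with COP1-siRNA. In all libraries SPRED2 was the more abundant of the pair.

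EGR1, a zinc finger transcription factor and immediate-early gene (chromosome 5, 138465479 to 138469303, plus strand), was at 1.78 TPM in Huh7 NC-siRNA, 1.19 in Huh7 COP1-siRNA, 35.8 in HepG2 NC-siRNA and 24.2 in HepG2 COP1-siRNA. It was the lowest of the 10 genes in both Huh7 libraries and the highest in both HepG2 libraries. Its share of their summed TPM was 0.727% in Huh7 NC-siRNA and 0.615% in Huh7 COP1-siRNA, but 39.1% and 28.4% in the corresponding HepG2 libraries. PHLDA1, a pleckstrin homology-like domain protein whose mRNA follows ERK activity (chromosome 12, 76025447 to 76031776, minus strand), was at 60.6 TPM in Huh7 NC-siRNA, 52.4 in Huh7 COP1-siRNA, 9.76 in HepG2 NC-siRNA and 13.0 in HepG2 COP1-siRNA. It headed the order in both Huh7 libraries and was 6.2-fold and 4.02-fold above HepG2 with NC-siRNA and COP1-siRNA.

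**Figure D1:**
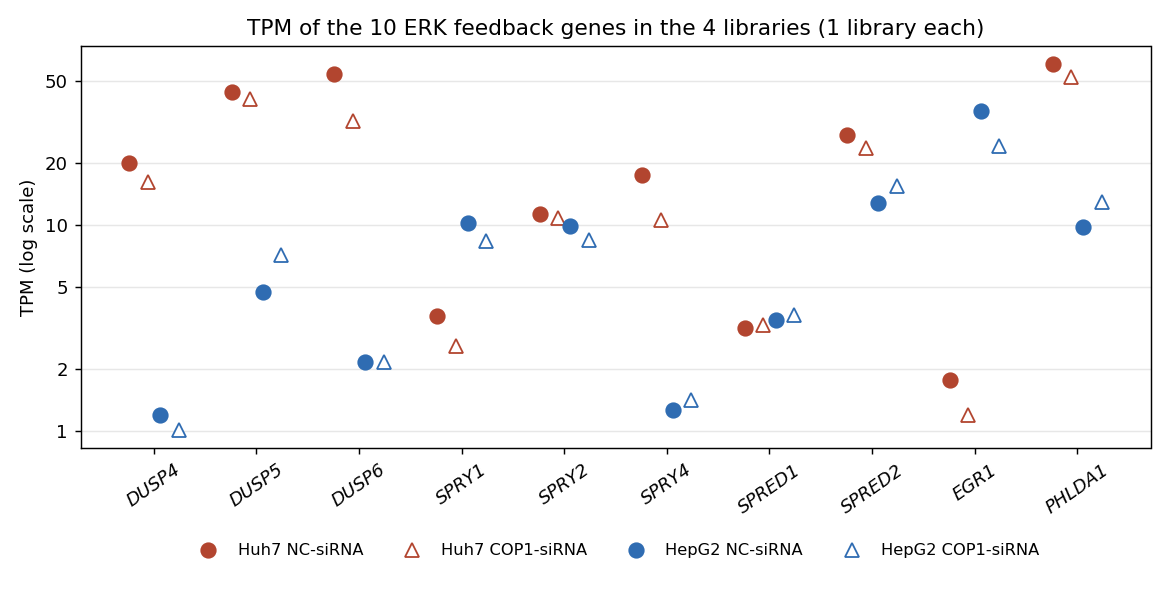
TPM of each ERK feedback gene (log axis) in the 4 libraries, 1 point per library, with circles for NC-siRNA, triangles for COP1-siRNA, red for Huh7 and blue for HepG2. The 2 red points lie above the 2 blue points for 7 genes and below them for SPRY1, SPRED1 and EGR1, with Huh7 values of 1.19 to 60.6 TPM and HepG2 values of 1.01 to 35.8 TPM.

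The order of the levels in Huh7 NC-siRNA was PHLDA1, DUSP6, DUSP5, SPRED2, DUSP4, SPRY4, SPRY2, SPRY1, SPRED1 and EGR1. With COP1-siRNA the neighbours DUSP6 and DUSP5, SPRY4 and SPRY2, and SPRY1 and SPRED1 changed places, so these neighbours did not keep their order. In HepG2 NC-siRNA the order was EGR1, SPRED2, SPRY1, SPRY2, PHLDA1, DUSP5, SPRED1, DUSP6, SPRY4 and DUSP4. SPRY1, SPRY2 and PHLDA1 lay between 9.76 and 10.2 TPM there and stood in the reverse order with COP1-siRNA. The spread of each level between replicates was unknown.

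**Figure D2:**
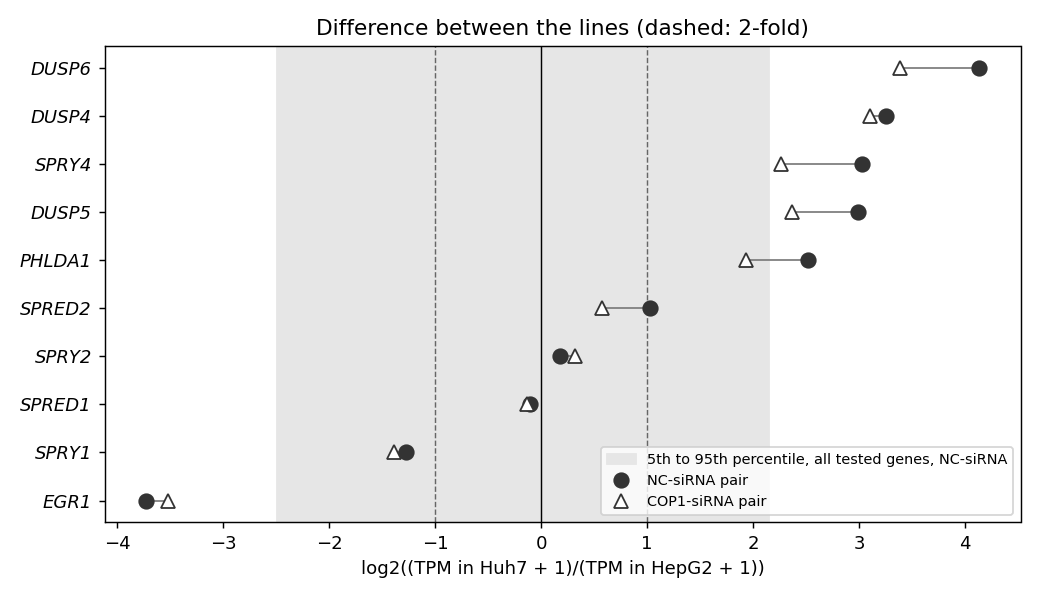
Difference between the lines for each ERK feedback gene, as log2((TPM in Huh7 + 1)/(TPM in HepG2 + 1)), with circles for the NC-siRNA pair, triangles for the COP1-siRNA pair, a grey band from the 5th to the 95th percentile of all tested genes and dashed lines at 2-fold. DUSP6, at 4.13 and 3.38, stands farthest to the right, EGR1, at -3.73 and -3.52, farthest to the left.

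Taking the libraries of each line together, both Huh7 values were above both HepG2 values for 7 of the 10 genes (beside 31.0% of all tested genes). The reverse held for SPRY1, SPRED1 and EGR1 (beside 56.5%). No gene of the 10 overlapped between the lines, as was true of 87.5% of all tested genes, so the absence of overlap was common. The summed level of the 10 genes was 244 TPM in Huh7 NC-siRNA, 194 in Huh7 COP1-siRNA, 91.5 in HepG2 NC-siRNA and 85.1 in HepG2 COP1-siRNA.

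The bases just before a RefSeq transcription start are shown for 4 genes that were past 2-fold between the lines. These were EGR1, higher in HepG2, and DUSP6, SPRY4 and PHLDA1, higher in Huh7. The RefSeq promoter table used here (GRCh38.p14) held an entry for 8 of the 10 genes, without DUSP4 and DUSP5. The 250 bases before each start were searched for the CRE motif TGACG and the ETS core CCGGAA on both strands, for the TATA box TATAAA along the gene, and for the CArG box, the site of serum response factor. For SPRY4 and SPRED1 these bases lie inside the gene intervals given above, before a RefSeq start within the gene. Capitals mark the matches below, and each sequence runs 5′ to 3′ along the gene, ending at the last base before the start.
EGR1 (chr5:138465229-138465478, plus strand): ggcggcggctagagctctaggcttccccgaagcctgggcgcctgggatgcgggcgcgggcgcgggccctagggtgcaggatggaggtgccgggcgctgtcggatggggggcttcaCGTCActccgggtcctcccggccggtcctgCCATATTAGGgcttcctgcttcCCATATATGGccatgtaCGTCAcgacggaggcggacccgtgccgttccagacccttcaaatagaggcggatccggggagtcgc
DUSP6 (chr12:89352502-89352751, minus strand): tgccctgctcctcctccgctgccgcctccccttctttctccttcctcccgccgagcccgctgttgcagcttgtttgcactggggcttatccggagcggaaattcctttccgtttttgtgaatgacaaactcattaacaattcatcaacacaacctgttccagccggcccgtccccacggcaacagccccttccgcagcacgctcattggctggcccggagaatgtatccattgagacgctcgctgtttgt
SPRY4 (chr5:142324248-142324497, minus strand): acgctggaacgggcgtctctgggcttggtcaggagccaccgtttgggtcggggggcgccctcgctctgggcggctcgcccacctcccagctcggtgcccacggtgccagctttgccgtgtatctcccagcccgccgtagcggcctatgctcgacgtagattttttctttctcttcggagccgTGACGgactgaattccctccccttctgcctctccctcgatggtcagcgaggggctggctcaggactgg
PHLDA1 (chr12:76031777-76032026, minus strand): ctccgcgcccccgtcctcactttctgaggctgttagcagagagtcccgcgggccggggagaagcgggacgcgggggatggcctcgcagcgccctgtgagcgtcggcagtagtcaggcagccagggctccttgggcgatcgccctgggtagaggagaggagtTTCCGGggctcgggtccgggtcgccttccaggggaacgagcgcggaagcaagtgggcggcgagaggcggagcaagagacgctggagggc

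The EGR1 promoter held 2 CArG boxes, at 105 to 96 and 83 to 74 bases before the start, and 2 CRE motifs on the other strand, at 135 to 131 and 66 to 62 bases. A CArG box was present in 1.16% of all 35116 RefSeq promoter windows of this length, and in no other of the 8 genes. The SPRY4 window held a CRE motif at 68 to 64 bases, and the PHLDA1 window an ETS core on the other strand at 89 to 84 bases. The DUSP6 window held none of the 4 motifs. The 8 genes had 12 windows, since some have several starts. A CRE motif was in 3 of the 12 (EGR1, SPRY4 and the first start of SPRY2), beside 21.2% of all windows, and an ETS core was in 3 of the 12 (PHLDA1, the first start of SPRY2 and the second start of SPRY1), beside 14.5%. A TATA box was found at a second start of SPRED2, and in 6.8% of all windows. These matches describe the letters only and do not show binding.

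COP1-siRNA was then compared with NC-siRNA within each line. In Huh7, 9 of the 10 genes were lower with COP1-siRNA, DUSP6 and SPRY4 by most, while SPRED1 was at 0.04. In HepG2, 5 were lower, of which DUSP6 at -0.001 turned to 0.004 and 0.06 under other scalings, and 5 were higher, with the largest decrease in EGR1 and the largest increase in DUSP5. None of the 10 was past 2-fold in Huh7, beside 1.08% of the 13000 genes tested, or in HepG2, beside 0.934% of 14456. Only genes that reached 1 TPM in at least 1 library of a line were tested there, and all 10 were tested in both lines. A decrease of any size was shown by 50.1% of the genes tested in Huh7 and 51.7% in HepG2. The median log2 change of the 10 genes was -0.24 in Huh7 and 0.03 in HepG2, beside -0.001 and -0.008 over all tested genes.

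In Huh7, 58.8% of the DUSP6 level and 60.9% of the SPRY4 level remained with COP1-siRNA, log2 changes of -0.75 and -0.67. These 2 genes alone were past 1.5-fold, beside 5.48% of all tested genes, and both were lower, beside 2.68% that were lower by as much. SPRY4 fell short of 1.5-fold under upper-quartile scaling (-0.54), with FPKM (-0.56) and with coverage (-0.49), whereas DUSP6 did not. Among all genes tested in Huh7, DUSP6 was at percentile 1.20 and SPRY4 at percentile 1.68. For comparison, the changes of genes between 20 and 100 TPM in Huh7 ran from -0.45 to 0.29 (5th to 95th percentile), and those between 5 and 20 TPM from -0.47 to 0.43. The other phosphatases were closer to their controls, with log2 changes of -0.28 for DUSP4 and -0.11 for DUSP5, the latter 0.02 under upper-quartile scaling. SPRY1 (-0.37), EGR1 (-0.34), SPRED2 (-0.21) and PHLDA1 (-0.20) were lower within the range of most genes. SPRY2 (-0.07, but 0.06 under upper-quartile scaling) and SPRED1 (0.04) were the nearest to 0. Upper-quartile scaling shifted the median change of all genes to 0.12 in Huh7, and 7 of the 10 genes were then lower.

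In HepG2, the same 2 genes were near their controls, DUSP6 at -0.001 (0.06 under upper-quartile scaling) and SPRY4 at 0.10. Both were near 1 to 2 TPM in this line, where genes between 1 and 5 TPM ran from -0.48 to 0.58. EGR1 had the largest change, -0.55, with 67.5% of its level left and at percentile 2.24 of all tested genes. In Huh7 67.2% of EGR1 was left, nearly the same share, and the smaller log2 change of -0.34 there came with a level below 2 TPM, where the added 1 TPM compresses a ratio. On the plain TPM ratio the 2 changes of EGR1 differed by -0.01. DUSP5 was 51.7% higher with COP1-siRNA in HepG2, a log2 change of 0.51 at percentile 96.4. PHLDA1 (0.38) and SPRED2 (0.25) were also higher, SPRY1 (-0.26), SPRY2 (-0.21) and DUSP4 (-0.13) lower, and SPRED1 changed by 0.07. On the log2(TPM + 1) scale no gene of the 10 was past 1.5-fold in HepG2, beside 4.43% of all tested genes. DUSP5 was just past it on the plain TPM ratio (1.52-fold) and under upper-quartile scaling (log2 change 0.59).

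**Figure D3:**
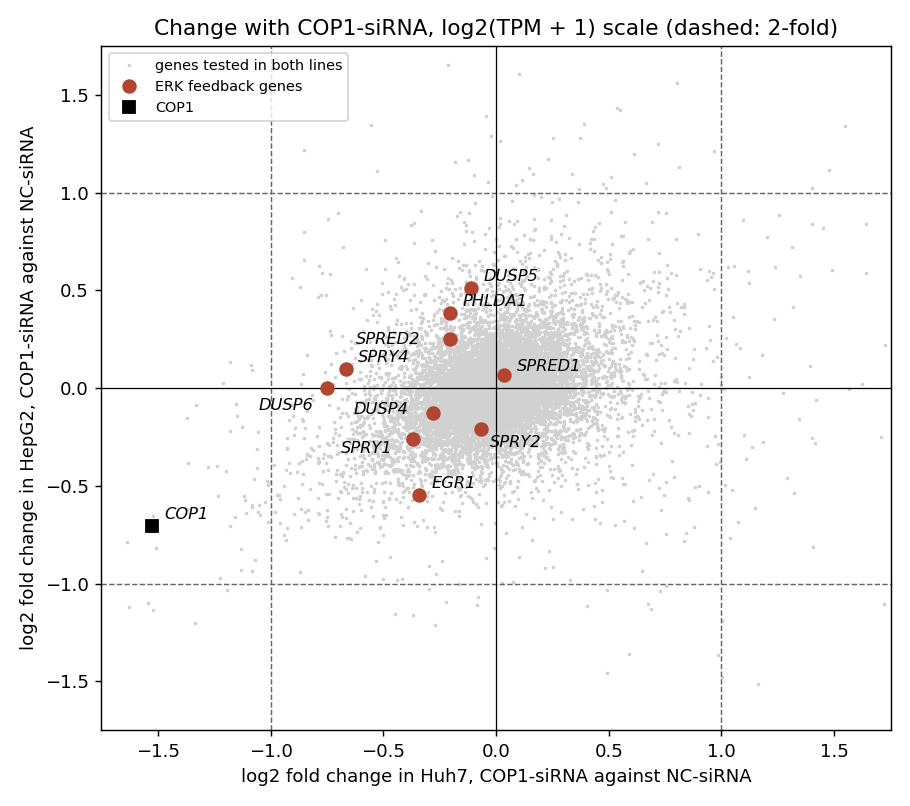
Log2 fold change with COP1-siRNA in Huh7 (horizontal) and HepG2 (vertical), with grey points for genes tested in both lines, red points for the ERK feedback genes, a black square for COP1 and dashed lines at 2-fold (some grey points lie beyond the axes). All 10 red points lie inside the dashed lines, DUSP6 (-0.75) and SPRY4 (-0.67) farthest to the left, DUSP5 (0.51) highest and EGR1 (-0.55) lowest.

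Across the lines, 5 of the 10 genes were lower in both (DUSP4, DUSP6, SPRY1, SPRY2 and EGR1), as were 31.0% of the 11970 genes tested in both. SPRED1 alone was higher in both, and DUSP5, SPRY4, SPRED2 and PHLDA1 were lower in Huh7 and higher in HepG2. Under upper-quartile scaling DUSP6 in HepG2, SPRY2 in Huh7 and DUSP5 in Huh7 changed sign. Of the 4 genes with opposite changes, 3 had changes at least 1.5-fold apart (SPRY4, DUSP5 and PHLDA1), beside 4.77% of the genes tested in both lines. PHLDA1 and DUSP5 fell short of this under upper-quartile scaling (-0.53 and -0.57) and with FPKM or coverage (-0.47 for each). The change in Huh7 minus that in HepG2 was -0.76 for SPRY4, -0.75 for DUSP6, -0.62 for DUSP5, -0.59 for PHLDA1 and -0.46 for SPRED2. It was between -0.15 and 0.21 for the other 5 genes. With 1 library per line and siRNA, no test of these differences could be made, and the lines also differed in how much COP1 remained.

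Both lines were also combined in a limma fit of log2(TPM + 1) with the line as a block, which was added after the data had been seen. The lines then act as the replicates, with 1 residual degree of freedom, and a change that differs between them counts as error. The SE and p are moderated by limma, which borrows variance from all tested genes (4.97 prior degrees of freedom). The SE is thus not the spread between the 2 lines, in which DUSP6, for instance, changed by -0.75 and -0.001. EGR1 had a mean log2 change of -0.44 ± 0.12 (SE), lower in 2 of 2 lines, with a limma adjusted p of 0.24. The next largest decreases were those of DUSP6, -0.37 ± 0.19 (limma adjusted p = 0.47), and SPRY1, -0.31 ± 0.13 (limma adjusted p = 0.40). None of the 10 genes was below an adjusted p of 0.05, beside 0% of the 11970 genes tested, and COP1 itself was not, at -1.12 ± 0.19 (limma adjusted p = 0.14). At an unadjusted p under 0.05 the fit held 1 of the 10 genes, EGR1, and 1491 of all genes (12.5%).

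By family, the 3 phosphatases summed to 119 TPM in Huh7 NC-siRNA against 89.5 in Huh7 COP1-siRNA, whereas HepG2 had 8.09 and 10.3 TPM, respectively. The Sprouty genes summed to 32.5 and 24.1 TPM in Huh7, with 21.5 and 18.3 TPM in HepG2. The SPRED genes summed to 30.6 and 26.9 TPM in Huh7, with 16.4 and 19.2 TPM in HepG2. Of the 3 families, the Sprouty genes alone had a lower sum with COP1-siRNA in both lines. The genes behind it differed, as SPRY4 went from 17.5 to 10.6 TPM in Huh7 but from 1.26 to 1.42 TPM in HepG2. There SPRY1 and SPRY2 were lower. Of the phosphatases, DUSP5 alone was higher with COP1-siRNA in HepG2, at 7.17 against 4.72 TPM.

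Levels of the remaining pathway were examined in 5 lists of 81 genes in all. The ERK core list held 20 kinases, adaptors and RAS regulators, which were all tested in both lines and none of which was past 2-fold with COP1-siRNA. Of these, 16 were lower in Huh7 (beside 50.1% of all tested genes) and 13 in HepG2 (beside 51.7%). The median log2 changes of the 20 genes were -0.10 and -0.03, and became 0.03 and 0.06 under upper-quartile scaling. Between the lines, 1 of the 20 core genes, the adaptor SHC1, was past 2-fold with both siRNAs, beside 34.6% of all tested genes. Its log2 differences were 2.17 and 1.83.

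Of the 16 receptors and ligands, 13 were tested in Huh7 and 12 in HepG2. None was past 2-fold with COP1-siRNA, and the median changes were -0.05 (0.08 under upper-quartile scaling) and 0.13. FGF19, a ligand of FGFR4, was at 8.73 TPM in Huh7 NC-siRNA and 4.57 in Huh7 COP1-siRNA (log2 change -0.80), and was listed at 0 in both HepG2 libraries. ERBB3, a receptor of the EGFR family, was at 38 and 39.3 TPM in Huh7 and at 8.06 and 10.9 TPM in HepG2 (log2 changes 0.05 and 0.39). Between the lines, 6 of the 15 tested genes were past 2-fold in favour of Huh7 with both siRNAs (beside 12.2% of all tested genes). The 3 in favour of HepG2 (beside 22.4%) were FGFR1, FGFR2 and TGFA. FGFR1 was at 5.10 and 5.12 TPM in Huh7 and at 21.9 and 21.5 TPM in HepG2. FGFR2 and TGFA were listed at 0 in both Huh7 libraries. EGFR, the receptor itself, was at 60.8 and 54.6 TPM in Huh7 and at 2.73 and 2.64 TPM in HepG2. Its ligand AREG was at 65.2 and 51.5 TPM in Huh7 and at 5.08 and 7.24 TPM in HepG2. The log2 changes of AREG were -0.33 and 0.44, a difference of -0.77 between the lines. EGFR and AREG, like DUSP4, DUSP5 and DUSP6, were thus higher in both Huh7 libraries than in either HepG2 library.

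Of the 17 other immediate-early genes, 14 were tested in Huh7 and 15 in HepG2, with median changes of 0.07 and 0.03. FOSL1, a FOS family subunit of the transcription factor AP-1, was at 5.45 TPM in Huh7 NC-siRNA, 13.8 in Huh7 COP1-siRNA, 2.95 in HepG2 NC-siRNA and 5.76 in HepG2 COP1-siRNA. It was higher with COP1-siRNA in both lines (log2 changes 1.20 and 0.78), and in Huh7 it was the only gene of the 5 lists past 2-fold. KLF6, a zinc finger transcription factor, was at 49.9 and 62.8 TPM in Huh7 and at 12.3 and 17.4 TPM in HepG2 (0.32 and 0.47). Its level, too, was higher with COP1-siRNA in both lines, unlike that of EGR1. JUN was at 69.0 and 62.8 TPM in Huh7 and at 143 and 100 TPM in HepG2 (-0.13 and -0.51). JUN, like EGR1, was higher in both HepG2 libraries than in either Huh7 library.

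Of the 8 other ERK output genes, 6 were tested in Huh7 and 8 in HepG2, with median changes of -0.33 and 0.06. ETV4, a PEA3 family transcription factor, was at 22.1 TPM in Huh7 NC-siRNA, 11.7 in Huh7 COP1-siRNA, 15 in HepG2 NC-siRNA and 13.4 in HepG2 COP1-siRNA. The log2 change of ETV4 was -0.86 in Huh7 and -0.16 in HepG2, so that like DUSP6 and SPRY4 it was lower mainly in Huh7. The related ETV5 and ETV1 changed by -0.46 and -0.44 in Huh7 and by 0.05 and 0.07 in HepG2. PLAUR, the urokinase receptor, went the other way, at 1.67 and 3.54 TPM in Huh7 and at 6.47 and 8.97 TPM in HepG2 (0.77 and 0.42), and was past 2-fold in Huh7 on the plain TPM ratio. CCND1, which encodes cyclin D1, was at 154 and 132 TPM in Huh7 and at 15.7 and 22 TPM in HepG2 (-0.22 and 0.46). CCND1 thus had the pattern of DUSP5 and PHLDA1, high in Huh7, and lower there but higher in HepG2 with COP1-siRNA.

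Of the 20 relatives and other feedback regulators, 14 were tested in Huh7 and 17 in HepG2. None was past 2-fold, with median changes of -0.10 (0.03 under upper-quartile scaling) and 0.03. RASA2, a RAS GTPase-activating protein, was at 5.69 and 4.55 TPM in Huh7 and at 4.96 and 3.70 TPM in HepG2 (-0.27 and -0.34). ERRFI1, an inhibitor of EGFR, was at 95.1 and 115 TPM in Huh7 and at 26.2 and 29.6 TPM in HepG2 (0.27 and 0.17). DUSP9, a cytoplasmic ERK phosphatase related to DUSP6, was the more abundant of the pair in all libraries, at 243 and 174 TPM in Huh7 and at 61.2 and 64.1 TPM in HepG2. Its log2 changes were -0.48 and 0.07, lower in Huh7 and not in HepG2, as for DUSP6. Of the other phosphatases of this list, DUSP16 (-0.33), DUSP10 (-0.24) and DUSP8 (-0.21) were also lower in Huh7. DUSP1 (0.04), DUSP7 (0.04), DUSP3 (0.12) and DUSP14 (0.17) were not, and DUSP2 was not tested there. In HepG2, DUSP10 (0.36) and DUSP8 (0.38) were higher, and DUSP16 (-0.02) was near its control. The change in Huh7 minus that in HepG2 was -0.60 for DUSP10 and -0.60 for DUSP8, near those of DUSP5 and PHLDA1. Between the lines, 5 of the 17 tested genes were past 2-fold in favour of Huh7 with both siRNAs (beside 12.2% of all tested genes). Another 5 were past it in favour of HepG2 (beside 22.4%).

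**Figure D4:**
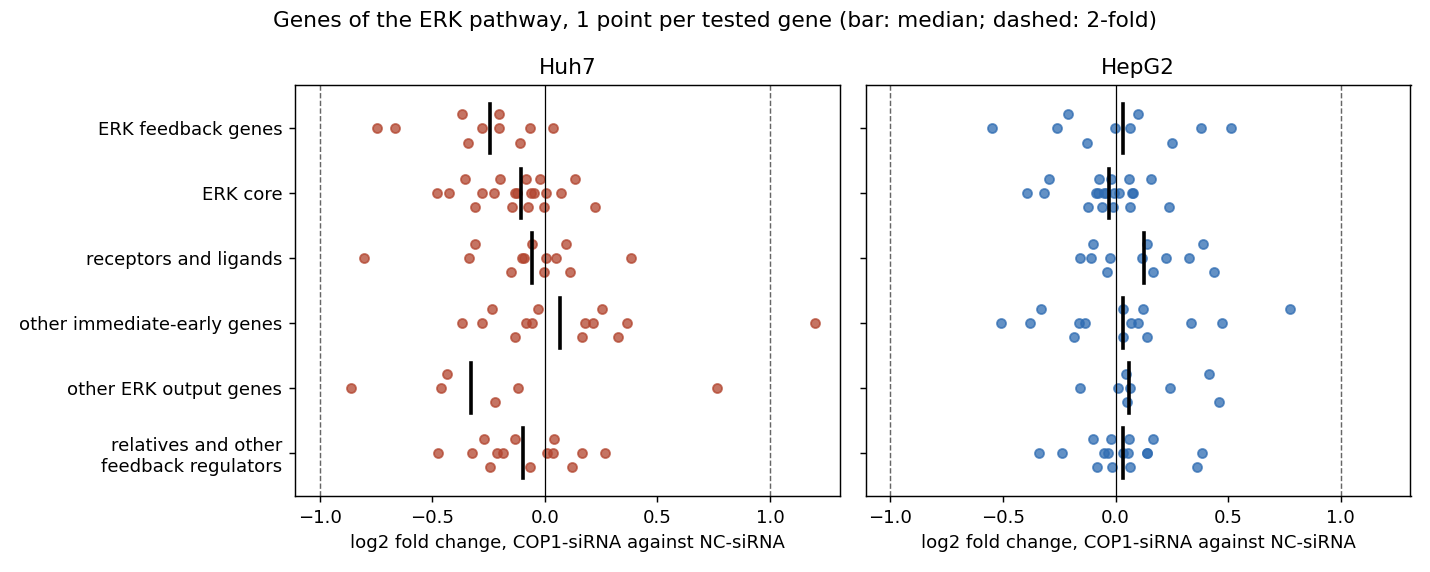
Log2 fold change with COP1-siRNA of each tested gene of the ERK feedback genes and of the 5 lists, in Huh7 (left) and HepG2 (right), with a bar at each median and dashed lines at 2-fold. The ERK feedback genes have a median of -0.24 in Huh7 and 0.03 in HepG2, and FOSL1, at 1.20 in Huh7, is the only point past a dashed line.

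EGR1 had the largest change of those that went the same way in both lines, taking the smaller of its 2 changes. The genes with the most similar pattern over the 4 libraries, whatever their level, were therefore sought for it. The distance was taken over the 4 values of log2(TPM + 1), centred on their mean, among 11970 genes. The nearest was HPRT1, a purine salvage enzyme, at 25.9 TPM in Huh7 NC-siRNA, 19.1 in Huh7 COP1-siRNA, 310.2 in HepG2 NC-siRNA and 220.3 in HepG2 COP1-siRNA (distance 0.146). CERS1, a ceramide synthase, followed with a distance of 0.267, and RPL22L1, a paralogue of a ribosomal protein, with 0.358. All 3 were higher in both HepG2 libraries than in either Huh7 library, as EGR1 was, which the choice by distance largely fixed. The same order was shown by 56.5% of all genes tested between the lines. RPL22L1, at 14.4 and 15.5 TPM in Huh7 and 210.3 and 171.7 TPM in HepG2, was not lower with COP1-siRNA in Huh7, unlike EGR1. This likeness rests on 4 libraries.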

How the data were processed

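Stranded libraries of polyA-selected RNA were sequenced, 1 per line and siRNA, and the labels give all 4 libraries the same batch. The submitters' processing notes name FastQC 0.11.7, Trimmomatic 0.38, HISAT2 2.1.0, StringTie 2.1.3b and GRCh38. The annotation is not given in the sources used here. The deposited TPM values are scaled by the authors within each library to a sum of 1000000. The deposited FPKM values are proportional to the TPM within a library. The deposited coverage is the mean read depth over a gene, not normalized for library depth. Samples were grouped by the line and siRNA in their labels.

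The deposited gene name field is empty, and the RefSeq table of GRCh38 held 44698 of the 46427 gene numbers (96.3%). The values of 52 repeated gene numbers, none of them a feedback gene, were summed. A change was the log2 ratio of (TPM + 1) with COP1-siRNA over (TPM + 1) with NC-siRNA, a scale that understates changes of low genes, for genes at or above 1 TPM in at least 1 library of the line. The threshold was 2-fold, and 1.5-fold was also counted. Within a line no test was possible. Over both lines, the change was tested with limma 3.58.1 (R 4.3.3), with line as a block, a mean-variance trend and Benjamini-Hochberg adjustment. The scripts (Python 3.11.15, numpy 2.4.6, pandas 2.3.3, matplotlib 3.10.9) were tested on simulated data. Alternatives were another pseudocount, FPKM, coverage, 2 scalings, other minimum levels, 1.5-fold, repeated numbers kept apart and, chosen after seeing the data, the plain TPM ratio and the fit over both lines.

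The feedback genes and the lists were chosen with earlier results of these data known. Named genes were the 10 feedback genes, COP1, list genes past 2-fold, the 2 genes of each list with the largest summed change of both lines, and the 3 nearest profiles to EGR1, and the genes that this rule names from the ERK core list are not reported here. SHC1, EGFR, AREG, FGFR1, FGFR2, TGFA, JUN, ETV1, ETV5, CCND1, DUSP9 and the other DUSP list genes were named after their values were seen.

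Read numbers are unknown. Relative depth was read from coverage divided by FPKM, which was 6.59 and 7.47 in Huh7 with NC-siRNA and COP1-siRNA and 5.75 and 7.31 in HepG2, the COP1-siRNA library being 1.13 times (Huh7) and 1.27 times (HepG2) as deep as its control. No counting error could therefore be given for a value. How reads of overlapping genes were divided is not given in the sources used here. Protein sequences and siRNA seed matches were not analysed here.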

Additional observations from a re-analysis of the deposited data

Results flagged for a closer look

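The following genes changed in opposite directions in the lines, with changes at least 1.5-fold apart, and in each case the difference was not tested because each line and siRNA had 1 library. The log2 change in Huh7 minus that in HepG2 was -0.76 for SPRY4, -0.62 for DUSP5 and -0.59 for PHLDA1. Among the 11970 genes tested in both lines, 4.77% met the same condition. Relative to NC-siRNA, SPRY4 was at -0.67 in Huh7 and 0.10 in HepG2, DUSP5 at -0.11 and 0.51, and PHLDA1 at -0.20 and 0.38. The Huh7 change of DUSP5 was 0.02 under upper-quartile scaling, so its opposite sign was lost there, and PHLDA1 was then -0.53 apart, short of 1.5-fold. SPRY4 was at 1.26 and 1.42 TPM in HepG2.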

How the results depend on the processing

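With the lines as a replicate block, 0 of the 10 genes passed an adjusted p of 0.05. The fit averages the changes of the 2 lines. The median of the 10 genes' mean log2 change, -0.17, was therefore the same without the block by construction. That median was between 0.04 and 0.06 with FPKM, a minimum of 5 TPM and coverage, where fewer genes were tested. Of 844 values recomputed under 11 alternatives, 756 stayed within 0.25 on the log2 scale or 1.5 times a count. No log2 value past 2-fold changed direction. No feedback gene was past 2-fold with COP1-siRNA, so that count could not include their changes with COP1-siRNA. Of 462 recomputed values of single feedback genes, 10 changed sign. Counts over all genes past 2-fold ran from 44 to 411 in Huh7 (141 as reported) and from 30 to 407 in HepG2 (135), against 713 and 640 at 1.5-fold.

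With a threshold of 1.5-fold, 2 feedback genes were past it in Huh7 in place of 0, as were 1 receptor or ligand and 2 other ERK output genes in Huh7 and 1 immediate-early gene in HepG2, each in place of 0. With a pseudocount of 0.1, and again with the plain TPM ratio, 1 other ERK output gene was past 2-fold in Huh7. The feedback genes lower in HepG2 numbered 3 in place of 5 with FPKM, with a minimum of 5 TPM and with coverage, since fewer of them then reached the minimum. The median difference between the lines went from 1.77 to 2.1 (NC-siRNA) and from 1.25 to 1.56 (COP1-siRNA) with median-of-ratios scaling, and to 2.52 and 1.93 with a minimum of 5 TPM. Median-of-ratios scaling divided TPM by 0.889 (NC-siRNA) and 0.893 (COP1-siRNA) in Huh7 and by 1.13 and 1.12 in HepG2. With a minimum of 5 TPM, SPRED1, at no more than 3.69 TPM, was no longer tested, and PHLDA1 was the median gene. The cause of the difference between the lines was not tested. Over all alternatives, DUSP6 in Huh7 ran from -0.77 to -0.61 and SPRY4 from -0.72 to -0.49.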
